A study of Mus musculus with 63 samples.

Results

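The dentate gyrus (DG) was compared with area CA3 in wildtype hippocampal slice cultures 3 days after an entorhinal cortex lesion (ECL). The labels gave 10 such libraries, 7 of DG tissue and 3 of CA3 tissue, out of 63 libraries in the series and 39 that were cut by region. Members were chosen on a measured value: DG biological replicates 1 to 4, 6 and 7 were set against CA3 replicates 1 to 3, and DG replicate 5 was left out because its Prox1 level was that of CA3. Replicate 5 was then placed on the scale that the other 9 libraries span.

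All 10 cultures were C57BL/6 wildtype cultures, prepared at postnatal days 3 to 5, grown in vitro for 18 days or more, and lesioned by transecting the entorhinal cortex. Each library was made from 1 DG or CA3 area cut by hand with a scalpel, so it holds every cell type in the piece. The same contrast in lesioned cultures labelled Synpo-/-, with 4 DG and 6 CA3 libraries, and in non-lesioned wildtype control cultures, with 4 DG and 2 CA3 libraries, served for comparison. The Synpo-/- cultures came from B6.129-Synpo tm1Mndl/Dllr mice, which lack the actin-associated protein synaptopodin, and the DG and CA3 groups of that genotype both carry the allele.

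Granule cells are the principal neurons of the DG. They receive the perforant path from the entorhinal cortex and send their axons, the mossy fibers, to CA3, where large boutons contact the proximal dendrites of CA3 pyramidal cells. Cutting the entorhinal cortex removes the main excitatory input of the granule cell dendrites. The perforant path also ends on the distal dendrites of CA3 pyramidal cells, so the lesion partly denervates both regions. The CA3 pyramidal cells keep their mossy fiber input. The transcription factor Prox1 gives granule cells their identity, and Dsp (desmoplakin), a protein of cell junctions, is a further granule cell marker. Iyd, an iodotyrosine deiodinase, was given as a marker of CA3 pyramidal cells. A transcript is counted where it was cut: RNA in granule cell bodies is read in the DG piece, while the proteins of mossy fiber boutons act in CA3.

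Library totals ran from 14055930 to 31953922 counted reads in the 6 DG libraries and from 20712170 to 34071797 in the 3 CA3 libraries, and DG replicate 5 had 46043990. Ttr, the main product of choroid plexus, was at 2470 and 6180 CPM (counts scaled by the library total) in DG replicates 1 and 3 and between 1.03 and 46.6 CPM in the other 8 libraries; DG replicate 2 of the Synpo-/- cultures had 8870 CPM. Xist was above the Y-linked genes in CA3 replicate 3 and DG replicates 4 to 7, and the Y-linked genes were above Xist in the other 5 libraries, so each region held cultures of both sexes. Synpo itself stood at 25 to 36.9 CPM in the 10 wildtype libraries and at 32.6 to 44.6 CPM in the 10 lesioned libraries labelled Synpo-/-. Which exons the allele lacks is not given in the sources used here, so this sum over exons neither bears out nor contradicts that label.

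The region markers separated the 6 DG libraries from CA3, as the choice of members fixed for Prox1. Prox1 (ENSMUSG00000010175, chromosome 1, 190118035 to 190170714, minus strand, mm10) had normalised read counts, that is counts scaled to a common library size, with a lowest, median and highest of 4204, 4686 and 5340 in DG. In CA3 the 3 libraries had 369, 289 and 392, and DG replicate 5 had 354. Every DG library of the 6 thus lay far above every CA3 library, and replicate 5 lay inside the CA3 range.

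Dsp (ENSMUSG00000054889, chromosome 13, 38151294 to 38198577, plus strand) showed the same order, with 367, 400 and 571 as lowest, median and highest in DG. Its CA3 counts were 18.5, 23.6 and 4.07, and replicate 5 had 15.8. Iyd (ENSMUSG00000019762, chromosome 10, 3540240 to 3554877, plus strand) had 118, 128 and 145 in DG and 215, 179 and 189 in CA3, with 435 in replicate 5. The 2 regions did not overlap for Iyd, but the gap was narrow, and replicate 5 exceeded every CA3 library. In wildtype control cultures the log2 fold change of Iyd between DG and CA3 was 0.37, the opposite sign, and was not called, so Iyd marked CA3 weakly in these cultures.

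**Figure D1:**
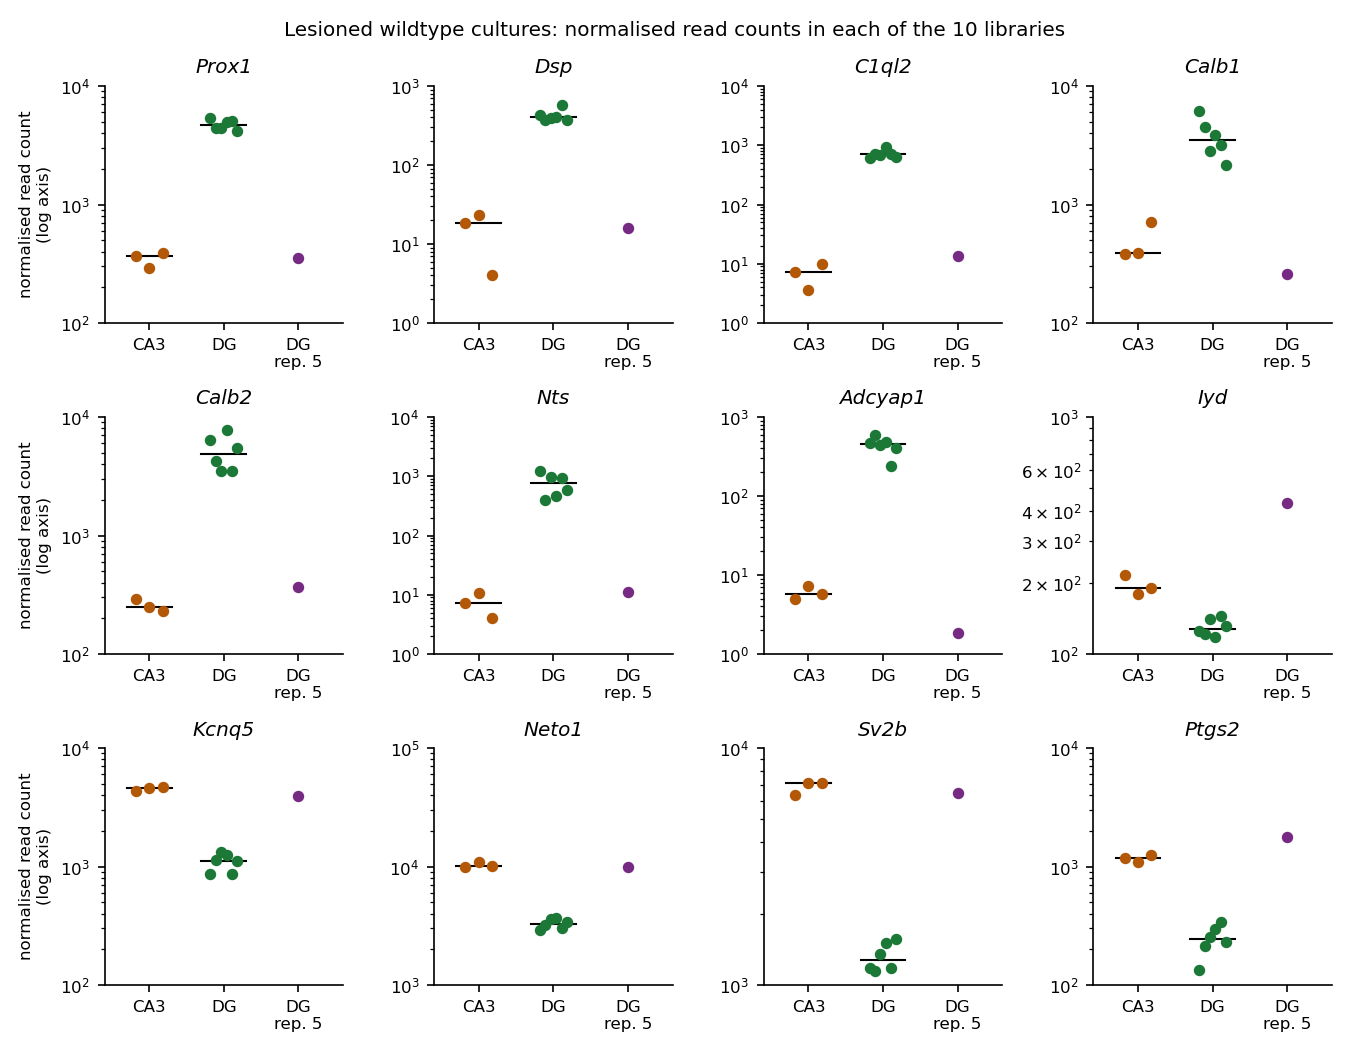
Normalised read counts (log axis) of marker genes in each of the 10 lesioned wildtype libraries, with CA3, the 6 DG libraries and DG replicate 5 as separate columns of points and 1 panel per gene. DG replicate 5 lies with the CA3 points for Prox1 (354 against 289 to 392) and far below the 6 DG points (4204 to 5340).

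DG replicate 5 was located between the regions with genes that no wildtype library had selected. The scale used the 865 genes that passed the test in lesioned Synpo-/- cultures with an absolute log2 fold change over 1 and were tested in wildtype. For each gene the CA3 mean was set to 0 and the mean of the 6 DG libraries to 1, each library being left out of its own group mean, and the median over genes was taken. Replicate 5 came out at -0.04, beside CA3 replicates 1 to 3 at 0.06, 0.02 and -0.06. DG replicates 1, 2, 3, 4, 6 and 7 lay at 1.1, 0.977, 0.998, 0.948, 1.02 and 0.961. The CA3 and DG means define the ends of this scale, so only the position of replicate 5 carries information, and it was that of CA3.

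The position did not hinge on which genes were used. On the 546 scale genes higher in DG it was -0.03, on the 319 lower in DG -0.04, on the 136 with an absolute log2 fold change over 2 -0.06, and on the 707 genes called in wildtype control cultures -0.04. With the 22 granule cell identity genes it was 0.01 and with the 15 CA3 identity genes -0.14, past the CA3 mean on the side away from DG. Prox1, by whose level replicate 5 had been left out, belongs to each of these sets except the 319 and the 15. Across 12215 genes Pearson's r of replicate 5 was 0.986 to 0.992 with the 3 CA3 libraries and 0.944 to 0.965 with the 6 DG libraries. These correlations are across genes, which are not independent replicates, and serve as description.

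**Figure D2:**
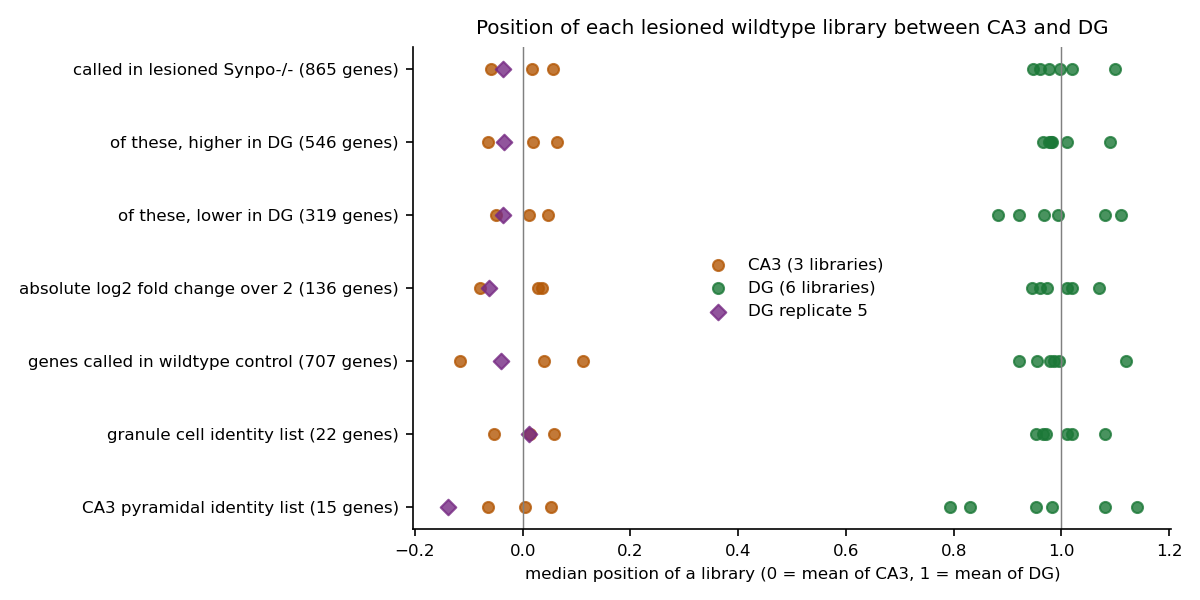
Median position of each lesioned wildtype library between CA3 (0) and DG (1), with 1 row of points per set of genes. DG replicate 5 (diamonds) stays at the CA3 end in every row, from -0.14 to 0.01.

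Because the 6 DG libraries were selected by a readout, the values of 6 against 3 are given as description, and tests were run where the selection played no part. By label, all 7 DG libraries against 3, the quasi-likelihood test of edgeR called 492 of 24029 genes (2.05%) at a Benjamini-Hochberg adjusted p under 0.05, 370 higher in DG (1.54%) and 122 lower (0.508%). The smallest adjusted p of that fit was 0.0256, and leaving out any 1 library other than replicate 5 left between 0 and 6 calls, while leaving out replicate 5 gave 4746. Calls by label are therefore reported only beside the second test. In lesioned Synpo-/- cultures, which share no library with the wildtype, 3098 of 22767 genes (13.6%) were called, 1678 higher in DG (7.37%) and 1420 lower (6.24%). Without the Synpo-/- DG library rich in Ttr the number was 2189, and without CA3 replicate 6 it was 4869. The background for list members called higher or lower below is 7.37% and 6.24% of all genes in Synpo-/-. By label it is 1.54% and 0.508%.

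The genes called by label in wildtype were mostly called in Synpo-/- too. Of the 370 higher in DG, 331 were called higher there (89.5%, or 19.7% of the 1677 called there and tested in both), and 368 had the same sign. Of the 122 lower in DG, 93 were called lower (76.2%, or 6.57% of 1415), and 119 had the same sign. None was called in opposite directions. The fit without replicate 5, which shares its other 9 libraries with the fit by label and is given as description, put 4746 genes past the threshold (19.8%), 1800 higher (7.51%) and 2946 lower (12.3%) in DG, a split that became 2431 higher and 2354 lower once a trend with gene length was removed. By plain order, 9.47% of genes had all 6 DG libraries above all 3 CA3 libraries and 11.3% had all 6 below.

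**Figure D3:**
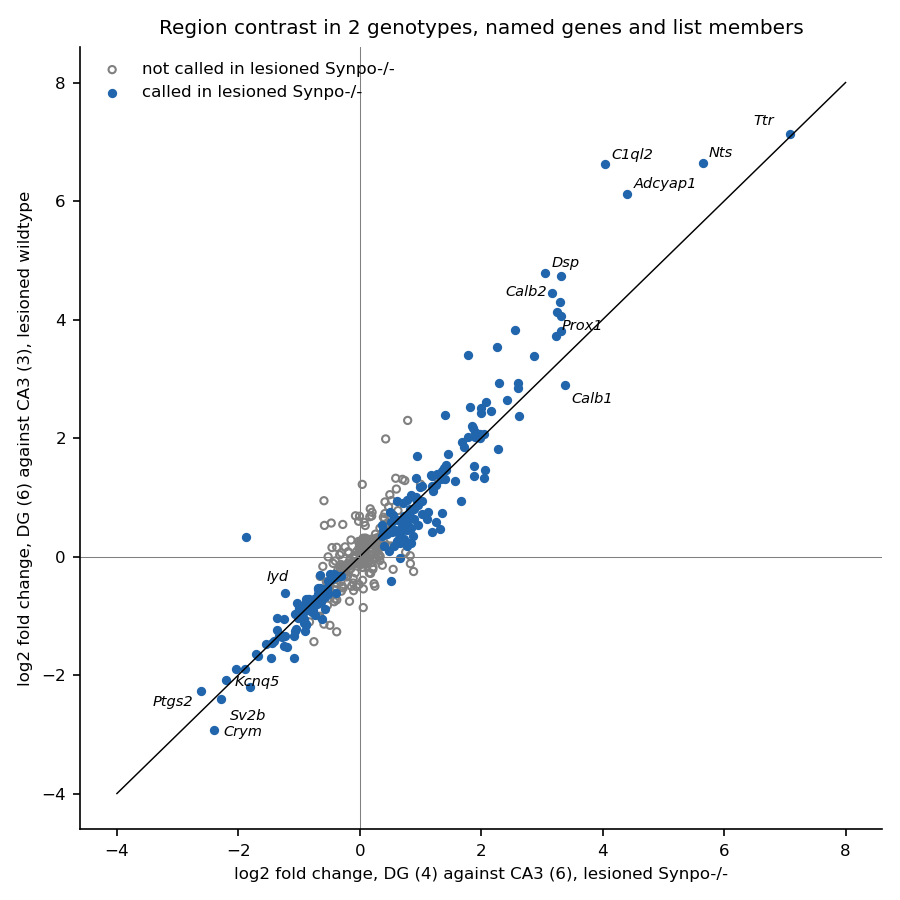
Log2 fold change of DG against CA3 in lesioned wildtype (6 against 3 libraries, vertical axis) and in lesioned Synpo-/- cultures (4 against 6, horizontal axis) for 422 named genes and list members, filled where called in Synpo-/-. The sign was the same for 363 of the 422. These genes were chosen with results of these data known, and the share over all genes was not computed.

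Granule cell identity genes were higher in DG. Of 22 measured, 19 had all 6 DG libraries above CA3 and 1 had all below, with a median log2 fold change of 1.97 against 0.05 over all genes tested. In Synpo-/- 17 were called higher and none lower in edgeR, and by label in wildtype 16 and none. C1ql2, a secreted C1q-like protein of mossy fiber synapses, had 618, 702 and 919 as lowest, median and highest normalised counts in DG. In CA3 it had 7.40, 3.63 and 9.77, and replicate 5 had 13.3. The regions were thus separated without overlap, by a log2 fold change of 6.62 ± 0.25 (SE), and in Synpo-/- by 4.04 (adjusted p = 3.48e-07).

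Calb1 (calbindin), the calcium buffer of mature granule cells, varied more between DG libraries, with 2148, 3519 and 6106. Its CA3 counts were 381, 390 and 705 and that of replicate 5 was 260. DG and CA3 did not overlap, and the fold in Synpo-/- was 3.38 on the log2 scale (adjusted p = 4.62e-05). The exchange factor Dock10 (1.84 ± 0.12), the semaphorin Sema5a (2.64 ± 0.13), the cation channel Trpc6 (2.43 ± 0.16) and Stxbp6 (2.00 ± 0.15) also separated the regions on the log2 scale, and all 4 were called in Synpo-/- (1.72, 2.43, 2.00 and 1.98). Tdo2, Lct, Smad3, Ahcyl2 and Cadps2 were the 5 members not called there. Cadps2, a dense core vesicle factor, had the opposite order in wildtype, with 541, 608 and 650 in DG and 868, 843 and 787 in CA3.

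CA3 pyramidal identity genes were lower in DG. Of 15 measured, 13 had all 6 DG libraries below CA3, the exceptions being Coch and Cdh24, and the median log2 fold change was -1.25. In Synpo-/- 12 were called lower and none higher, and by label in wildtype 3. Kcnq5, a subunit of the M-type potassium channel, had 860, 1124 and 1325 in DG against 4301, 4609 and 4668 in CA3, and replicate 5 had 3904. Every DG library of the 6 lay below CA3, and the log2 fold change was -2.09 ± 0.13 in wildtype and -2.21 in Synpo-/- (adjusted p = 5.31e-06 by edgeR). Spock1 (-1.90 ± 0.11), a proteoglycan, Nectin3 (-1.48 ± 0.10), an adhesion molecule, and the transcription factor Neurod6 (-1.89 ± 0.16) followed the same order and were called in Synpo-/- (-1.88, -1.54 and -2.03). Grik4 (-1.25 ± 0.14), a kainate receptor subunit, was called there at -1.07. Iyd reached the threshold in Synpo-/- (-1.23, adjusted p = 0.045), although its DG libraries, at 71.1 to 129, fell within the CA3 span of 58.2 to 458. By label in wildtype Iyd was not called (-0.14, adjusted p = 0.862 by edgeR).

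Among genes taken by size of fold from those called by label, and outside the identity lists, Nts had the largest fold towards DG. Ttr was not among the genes so taken. Its normalised counts overlapped between the regions, at 128.7 to 150000 in the 6 DG libraries and 28.5 to 566.5 in CA3. Nts, which encodes the peptide neurotensin, had 398, 766 and 1216 in DG and 7.40, 10.9 and 4.07 in CA3, with 10.9 in replicate 5. Its log2 fold change was 6.64 ± 0.47, and 5.64 in Synpo-/- (adjusted p = 3.48e-07). Calb2 (calretinin), a calcium buffer of hilar mossy cells and of young granule cells in mice, had 3487, 4867 and 7832 in DG and 292, 250 and 231 in CA3. Replicate 5 had 369 reads of Calb2. The Synpo-/- CA3 libraries reached 1216 for Calb2 and the DG libraries began at 1432, so the regions were separated there as well (3.30, adjusted p = 0.000418).

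Other genes higher in DG had log2 fold changes of 2.93 to 4.74 in wildtype and all were called in Synpo-/-. They were C1ql3 (4.74 in wildtype, 3.32 in Synpo-/-), a relative of C1ql2; Dsc3 (4.44 and 3.16), a desmosomal cadherin; the zinc finger factor Tshz2 (4.13 and 3.25); the relaxin receptor Rxfp1 (4.07 and 3.31); Pter (3.80 and 3.31); and the diacylglycerol kinase Dgkh (2.93 and 2.29). C1ql3 and Pter lie end to end on chromosome 2 and reads were counted without strand, so reads at their junction cannot be told apart. Bcl11b, a zinc finger factor needed for granule cell maturation, had 1795, 2305 and 2605 in DG and 303, 190 and 148 in CA3, with 204 in replicate 5. The 6 DG libraries lay above all 3 of CA3 by 3.39 ± 0.20 on the log2 scale, and Synpo-/- gave 2.87 (adjusted p = 1.71e-05).

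Of the genes lower in DG by the same rule, Crym had the largest difference. Crym (mu-crystallin), which binds thyroid hormone, had 845, 1111 and 1691 in DG and 6824, 9200 and 10174 in CA3, with 6382 in replicate 5. The wildtype regions did not overlap (-2.92 ± 0.18), whereas in Synpo-/- the DG range of 497 to 1586 met a CA3 library at 1117 (-2.40, adjusted p = 0.00165). Neto1, an auxiliary subunit of kainate receptors, had 2935, 3292 and 3654 in DG and 9973, 11019 and 10113 in CA3. Replicate 5 had 9832 for Neto1, and the log2 fold change was -1.69 ± 0.10 in wildtype and -1.68 in Synpo-/- (adjusted p = 8.37e-06). Sema3e, a secreted guidance cue, had 981, 1136 and 1244 in DG and 3187, 3431 and 3791 in CA3, with 3118 in replicate 5 (-1.64 ± 0.10).

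Of the remaining genes lower in DG, Cpne7 (-2.19), Socs2 (-1.72), an inhibitor of cytokine signalling, Plagl1 (-1.71), a zinc finger factor, St18 (-1.50), Shisa6 (-1.45), Kit (-1.42), a receptor tyrosine kinase, and Dgkb (-1.35) were also called lower in Synpo-/-. Arhgdig (-1.44) was the only one of the 24 genes taken by size of fold that was not called in Synpo-/- (-0.76, adjusted p = 0.131).

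Genes of the presynaptic terminal divided between the regions. Of 20 in the list of mossy fiber presynaptic and vesicle genes, 5 had all DG libraries above and 13 had all below CA3. The median log2 fold change was -0.66. The test by label in wildtype called 3 higher and 1 lower, and in Synpo-/- 4 were called higher and 11 lower. The 4 higher genes were the vesicular zinc transporter Slc30a3 (2.02 ± 0.20), whose product loads mossy fiber vesicles with zinc, the vesicular glutamate transporter Slc17a6 (VGLUT2), the vesicle protein Sv2c (2.10 ± 0.22) and the synapsin Syn3 (1.19 ± 0.32). Slc17a6 had 351, 533 and 768 in DG and 74.0, 36.3 and 11.4 in CA3, with 121 in replicate 5, so that all libraries of the 2 regions were apart (3.83 ± 0.39).

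The lower presynaptic genes included the general release machinery. Sv2b, a paralogue of Sv2c, had 1146, 1269 and 1558 in DG and 6355, 7110 and 7120 in CA3, with 6461 in replicate 5. Sv2b was thus ordered opposite to Sv2c, at -2.41 ± 0.11 in wildtype and -2.29 in Synpo-/- (adjusted p = 4.26e-07), although the test by label missed it (adjusted p = 0.056). The active zone scaffolds Bsn (-0.93 ± 0.10), Pclo (-0.53 ± 0.10) and Rims1 (-0.92 ± 0.10), the calcium sensor Syt1 (-0.71 ± 0.09), the complexin Cplx1 (-1.26 ± 0.12) and the main glutamate transporter of cortical vesicles, Slc17a7 (-1.15 ± 0.14), were all called lower in Synpo-/-. Sv2a, Syt7, Cplx2, Nptx2 and Rab3a were not.

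Neuropeptide and growth factor genes leaned towards DG. Of 16, 8 had all DG libraries above CA3 and 2 below, with a median of 0.64. The test by label in wildtype called 3 higher and 1 lower, and in Synpo-/- 9 were called higher and 2 lower. Adcyap1, which encodes the peptide PACAP, had 241, 458 and 596 in DG against 4.93, 7.25 and 5.70 in CA3, with 1.82 in replicate 5. That separation was 6.12 ± 0.33 on the log2 scale in wildtype and 4.41 in Synpo-/- (adjusted p = 1.64e-05). The tachykinin gene Tac1 (1.72 ± 0.15), Npy (1.03 ± 0.18), Sst (0.64 ± 0.14) and Gal (2.06 ± 0.50) were called higher in Synpo-/- too. The granin Chgb (-0.72 ± 0.14) and the prohormone convertase Pcsk1 (-1.08 ± 0.12) were the 2 called lower. Bdnf, often described as abundant in granule cells, had 2084, 2892 and 4469 in DG and 2600, 3659 and 3662 in CA3, and was not called (0.13 in Synpo-/-, adjusted p = 0.7).

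Among glutamate receptor genes, calls in Synpo-/- fell on some members of each list. The summed kainate list was at 341 to 413 CPM in the 6 wildtype DG libraries and 567.2 to 651.8 in CA3. The summed NMDA list was at 660.3 to 769.1 and 880.8 to 958.6, while the AMPA and metabotropic sums overlapped. Of the 13 AMPA receptor and auxiliary genes, Gsg1l (2.37 ± 0.24) and Shisa9 (1.46 ± 0.13) were higher and Shisa6 (-1.45 ± 0.12), Cnih2 (-0.99 ± 0.14) and Gria1 (-0.33 ± 0.10) lower in both wildtype order and the Synpo-/- test, while the pore subunits Gria2, Gria3 and Gria4 were not called. Gria2 nevertheless had all 6 wildtype DG libraries below CA3, at 29250 to 35610 against 36450 to 38890. The median of the AMPA list, -0.08, became 0.04 once the gene length trend was removed. In the kainate list of 7, Grik4 and Neto1 were the 2 called lower in Synpo-/- and none was higher. For NMDA receptors, Grin2a (-0.54 ± 0.09) and Grin2b (-0.63 ± 0.10) were called lower in Synpo-/- among 6 tested. None of these 6 was called by label in wildtype. Among 7 metabotropic receptor genes, 3 were called higher in Synpo-/-, namely Grm2, Grm3 and Grm8, and 1 lower.

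Grm2 encodes the inhibitory autoreceptor of mossy fiber terminals. It had 172, 246 and 279 in DG and 29.6, 26.3 and 6.52 in CA3, with 24.3 in replicate 5. All 6 DG libraries were above CA3 (3.53 ± 0.32), and Synpo-/- gave 2.27 (edgeR, adjusted p = 0.000328).

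Among 12 GABA-A receptor genes, none was called higher and 1 lower by label in wildtype, with a wildtype median of 0.01. In Synpo-/- 3 were called higher and 4 lower. Gabrd, the delta subunit of tonic inhibition in granule cells, was higher (1.36 ± 0.24, and 1.87 in Synpo-/-), as was Gabrb2 (0.62 ± 0.15). Gabra5, an extrasynaptic subunit of pyramidal cells, had 2804, 3320 and 3911 in DG and 7024, 8429 and 9231 in CA3 (-1.33 ± 0.11), and Gabra2 and Gabrb1 were also among the genes called lower.

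Calcium store genes included some that were lower in DG. Of 13, 3 were called lower in Synpo-/- and none higher, and by label in wildtype 1 was called lower. By plain order, 5 had all 6 DG libraries below CA3 and 1 above, the ryanodine receptor Ryr1 (75.8 to 134 in DG, 48.1, 50.8 and 38.3 in CA3), which was not called by label (adjusted p = 0.116) or in Synpo-/- (0.324). The 3 called lower in Synpo-/- were the ryanodine receptor Ryr3 (-1.05 ± 0.11), the calcium pump Atp2a2 (-0.82 ± 0.10) and the store sensor Stim2 (-0.98 ± 0.10). In the list of synaptopodin family and alpha-actinin genes, Synpo2 (0.93 ± 0.19) was called higher in Synpo-/-. Actn1 (-0.59 ± 0.13) and Actn2 (-1.34 ± 0.15) were called lower there. By label in wildtype 1 gene of this list was called lower and none higher. Synpo had 570, 663 and 903 in DG and 851, 801 and 787 in CA3, with 820 in replicate 5. Its ranges overlapped, and the log2 fold change of -0.20 by label was not called (adjusted p = 0.457).

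Ion channel genes moved in both directions. By label in wildtype, 2 of 28 potassium channel genes were called higher in DG and 1 lower, and 1 of 20 sodium and calcium channel genes was called higher and none lower. In Synpo-/- 9 of 28 potassium channel genes were called lower and 4 higher, and 10 of 20 sodium and calcium channel genes lower and 1 higher, against 6.24% and 7.37% of all genes. Besides Kcnq5, the M-channel subunit Kcnq3 (-0.38 ± 0.10) and the delayed rectifier Kcna1 (-0.81 ± 0.10) were lower. The inward rectifier Kcnj9 (1.39 ± 0.12) and the leak channel Kcnk9 (1.33 ± 0.16) were higher. The sodium channel subunits Scn1a (-0.62 ± 0.09) and Scn8a (-0.73 ± 0.09) and the presynaptic calcium channels Cacna1a (-0.64 ± 0.12) and Cacna1b (-0.59 ± 0.10) were lower, and the embryonic form Scn3a (0.53 ± 0.11) was the 1 higher.

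Of 35 axon guidance and adhesion genes, 3 were called higher and 2 lower by label in wildtype, and 5 higher and 10 lower in Synpo-/-. The latter stand against 7.37% and 6.24% of all genes. Lrrtm4, a synaptic adhesion molecule of granule cell dendrites, had 1748, 2742 and 3942 in DG and 494, 526 and 478 in CA3, so the 6 DG libraries were all above (2.45 ± 0.20, and 2.16 in Synpo-/-). Its relative Lrrtm1 had the reverse order (-0.67 ± 0.10). Lower in DG beside Sema3e were the semaphorin receptor Plxna1 (-1.54 ± 0.14), Slit2 (-1.24 ± 0.11) and its receptor Robo1 (-0.78 ± 0.09), the netrin receptor Dcc (-0.94 ± 0.10), Nrp1 (-0.77 ± 0.10) and Epha4 (-0.55 ± 0.10).

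Among 28 forebrain transcription factors, 5 were called higher and none lower by label in wildtype, and 10 higher and 5 lower in Synpo-/-. With Bcl11b and Tshz2, the higher ones included Mef2c (1.35 ± 0.12), Id4 (1.30 ± 0.18) and Satb1 (0.95 ± 0.13). Bcl11a (-0.76 ± 0.09), the close relative of Bcl11b, was lower, as were Foxp1 (-0.76 ± 0.10) and Klf7 (-0.68 ± 0.09). The steroid receptors split: the mineralocorticoid receptor Nr3c2 was lower (-0.89 ± 0.09) and the glucocorticoid receptor Nr3c1 higher (0.45 ± 0.10), both called in Synpo-/-.

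**Figure D4:**
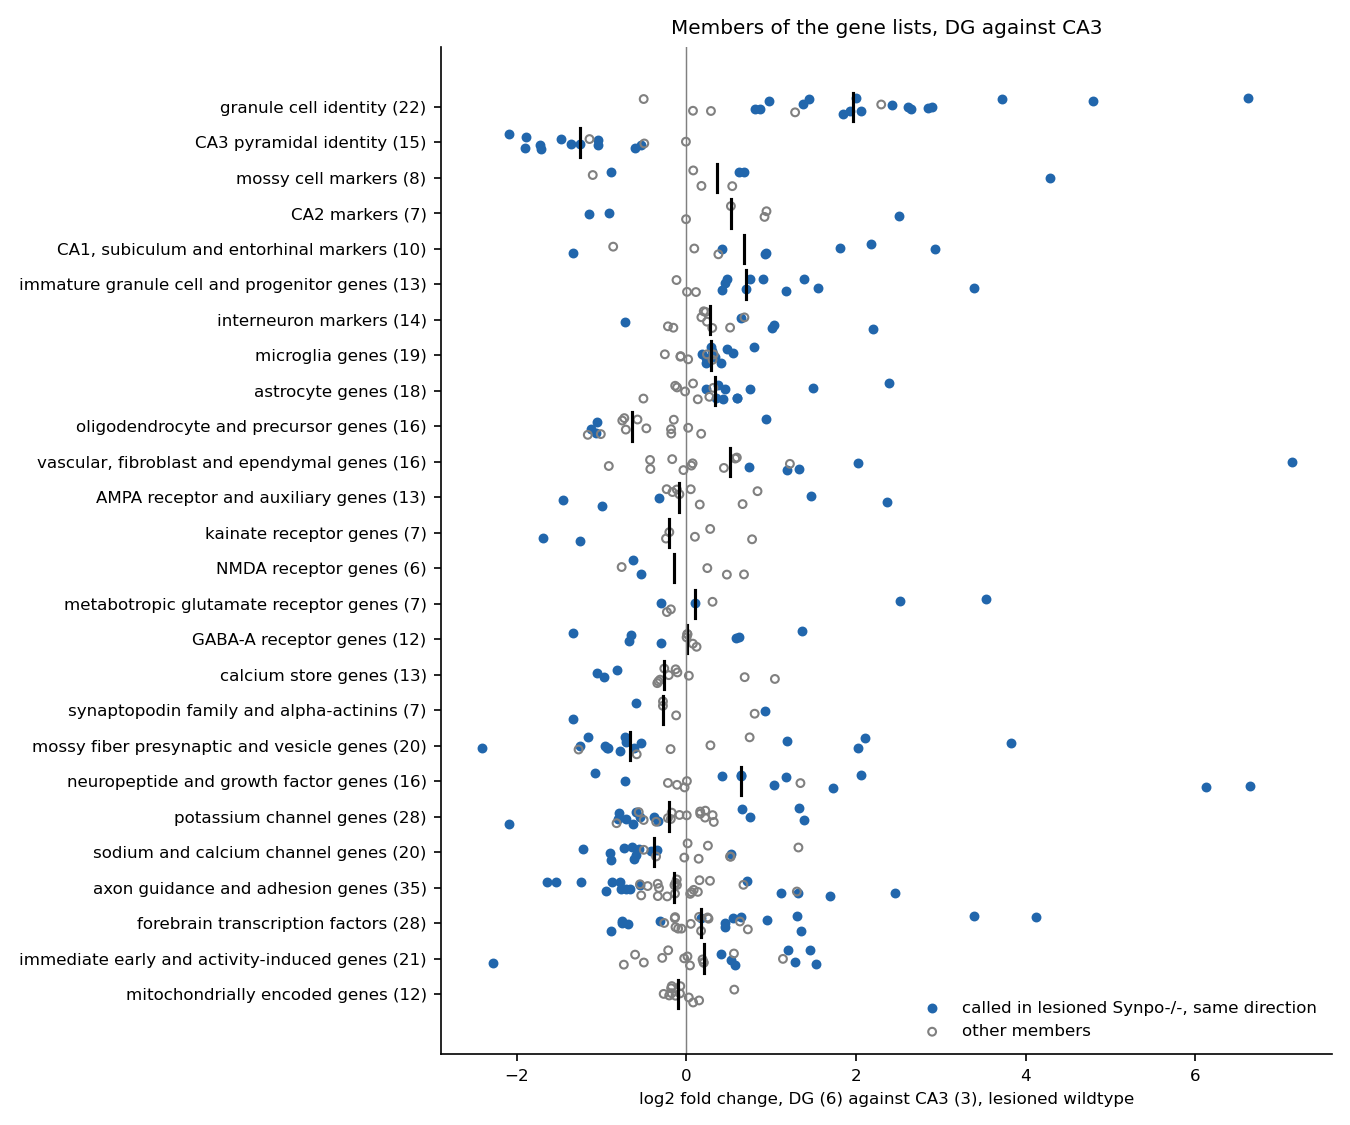
Log2 fold change of DG (6 libraries) against CA3 (3) in lesioned wildtype for every measured member of 26 gene lists, 1 row per list, filled where the gene was called in the same direction in lesioned Synpo-/- cultures. Granule cell identity genes lie mostly to the right (median 1.97), and CA3 identity genes (median -1.25) mostly to the left.

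Lists for other cell types had smaller medians than the identity lists. In bulk pieces, fewer cells of a type and less RNA per cell cannot be told apart. Of 13 immature granule cell and progenitor genes, 3 were called higher by label in wildtype and none lower, with a wildtype median of 0.70. In Synpo-/- 10 were called higher and none lower. Sox11 (1.38 ± 0.15), Tac2 (1.18 ± 0.27) and the proliferation gene Mki67 (0.91 ± 0.14) were among them, but Dcx (0.11 ± 0.11) and Neurod1 (0.01 ± 0.11), markers of newborn neurons, were not. Of 14 interneuron markers 4 were called higher in Synpo-/-, Reln (2.20 ± 0.21) with the largest fold, and Cnr1 lower. The GABA-synthesising enzymes Gad1 and Gad2 were not called, and by label in wildtype 1 marker was called higher and none lower.

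Markers of other hippocampal fields were uneven. Of 8 mossy cell markers 3 were called higher and 1 lower in Synpo-/-, and 1 higher without the library rich in Ttr. Drd2, a mossy cell receptor, was at 6.91 to 28 normalised counts in DG and at 6.16, 1.81 and 21.2 in CA3. Of 7 CA2 markers, Ntf3 (2.50 ± 0.24) was called higher in Synpo-/- and Amigo2 (-0.91 ± 0.15) and Necab2 (-1.15 ± 0.15) lower. The test by label in wildtype called 2 of the 7 higher and 2 lower. Of 10 genes for CA1, subiculum and entorhinal cortex, 6 were called higher in Synpo-/-, among them Pou3f1 (2.17 ± 0.30), and Etv1 lower (-1.34 ± 0.13). For these 10 the test by label called 2 higher and 1 lower. The summed level of that list was 224.6 to 267.2 CPM in the 6 DG libraries and 232.7 to 257.4 in CA3. Its part in the region contrast was not tested.

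Glial lists differed in direction. Of 18 astrocyte genes 10 were called higher in Synpo-/- and none lower (7 without the Ttr-rich library). The test by label in wildtype called 2 higher and none lower. Gja1 (0.76 ± 0.09), the astrocytic connexin, and Aqp4 (0.60 ± 0.10), the water channel, were among those called in Synpo-/-. The summed astrocyte level was 8712 to 9792 CPM in the 6 DG libraries and 6459 to 6804 in CA3. Of 16 oligodendrocyte genes, 3 myelin genes, Ermn, Opalin and Mal, were called lower in Synpo-/- and Gpr17, a receptor of committed precursors, higher. None of the 16 was called by label in wildtype. In wildtype 8 of those 16 had all DG libraries below CA3, with a summed level of 1039 to 1386 CPM against 1385 to 2298, and DG replicate 5 was at 2434. What these shares of glia contribute to other genes was not tested.

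Vascular, fibroblast and ependymal genes gave 5 calls higher in DG of 16 in Synpo-/-, and 2 without the library rich in Ttr. The test by label in wildtype called 1 higher and none lower. Rgs5, a pericyte gene, was separated in wildtype (2.02 ± 0.14). Pdgfrb and Acta2 of the same list overlapped between the regions. Pdgfrb had 67.4 to 111 in the 6 DG libraries and 108.5, 68.0 and 61.9 in CA3. Acta2 had 4.59 to 19.5 in DG and 3.70, 9.07 and 11.4 in CA3. The endothelial markers Cldn5, Pecam1 and Cdh5 were at most 54.2 normalised counts in all 10 libraries and were not called. None of the 12 mitochondrially encoded genes and none of the 5 sex-linked genes was called by label or in Synpo-/-.

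Microglia, the immune cells of the brain, take up debris after a lesion, and their genes were followed in lesioned and control cultures. Of 19 microglia genes tested, 12 were called higher in DG in lesioned Synpo-/- and none lower, also without the Ttr-rich library. In lesioned wildtype the median was 0.29, 5 genes had all DG libraries above CA3, and 1 was called by label. That gene, Aif1, which encodes the microglial calcium-binding protein Iba1, had 2984, 3358 and 3628 in DG and 2222, 1590 and 1824 in CA3, with 2376 in replicate 5. The DG libraries were above CA3 without overlap (0.80 ± 0.12), by label it was called (0.77, adjusted p = 0.0274), and Synpo-/- gave 0.89 (adjusted p = 3.99e-05). In control wildtype the log2 fold change of Aif1 was -0.47, and none of the 19 microglia genes was called there.

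The difference between the lesioned and control contrasts was tested as an interaction with all libraries by label. No gene of 27783 passed in edgeR after Benjamini-Hochberg adjustment (smallest adjusted p 0.509), and 1240 had an unadjusted p under 0.05 (4.46%), 766 of them positive (2.76%), that is more towards DG after the lesion. By unadjusted p, Aif1 came first on the positive side (difference of the log2 fold changes 1.22), ahead of Spef2 (1.34) and Dynlrb2 (2.56), genes of motile cilia. In the lesioned contrast by label Spef2 and Dynlrb2 stood at -0.09 and -0.10, and neither was called. Their control folds were -1.46 and -2.69, with 2 CA3 libraries, so their differences lay in the control contrast. Upk3a (-6.05), Gm49311 (-2.66) and Zfyve19 (-0.96) led the negative side. Upk3a and Gm49311 had low mean counts in the lesioned libraries, at 20.2 and 12.2. Without CA3 replicate 3 the number that passed was 14. DESeq2 called 10 with every library kept, Aif1, Dynlrb2 and Spef2 among them.

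By list, 9 of 19 microglia and 7 of 18 astrocyte genes had a positive interaction at an unadjusted p under 0.05, with medians of 0.52 and 0.50. Other lists had medians of the same size, 0.52 for immediate early and activity-induced genes (5 of 21 positive), 0.51 for mossy cell markers (2 of 8) and 0.51 for oligodendrocyte and precursor genes (1 of 16). The 6 control libraries were all high in Xist (180 to 385 CPM), while the lesioned libraries were of both sexes, so sex was not balanced between the 2 conditions, and its part in this difference was not tested.

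Immediate early genes, which neuronal activity induces, were followed in the same way. Of 21, 7 were called higher in DG in lesioned Synpo-/-, Fos, Junb, Egr1, Egr2, Egr4, Nr4a1 and Nr4a2, and Ptgs2 lower. In lesioned wildtype their DG libraries were spread widely: Fos had 1074, 2472 and 3778 in DG and 1056, 791 and 1140 in CA3, with 1779 in replicate 5. The lowest DG library overlapped CA3, and Fos was called by label (1.25, adjusted p = 0.0453) and in Synpo-/- (1.56, adjusted p = 0.00127). In control wildtype Fos was at 0.06, and Arc, Nr4a3, Ptgs2 and Inhba were the 4 called lower in DG. Ptgs2, the inducible cyclooxygenase, had 135, 242 and 342 in lesioned DG and 1175, 1094 and 1251 in CA3, with 1774 in replicate 5, so it was low in all 6 DG libraries (-2.28 ± 0.19, and -2.61 in Synpo-/-, adjusted p = 1.58e-05). The test by label in wildtype called 1 gene of the 21 higher, Fos, and none lower, so Ptgs2 was not called by it.

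**Figure D5:**
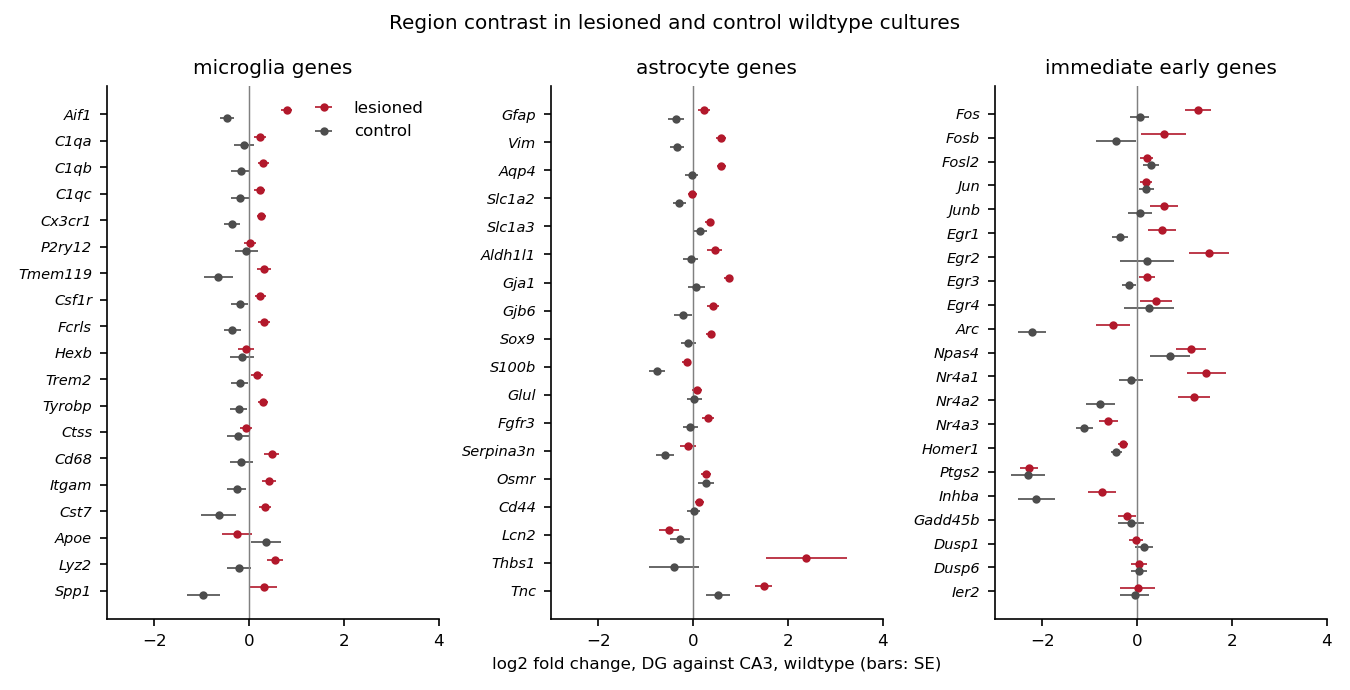
Log2 fold change of DG against CA3 with SE (bars) for microglia, astrocyte and immediate early genes in wildtype, lesioned (6 against 3 libraries) and control (4 against 2). Aif1 is at 0.80 in lesioned and -0.47 in control cultures, and Fos at 1.28 and 0.06.

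Finally, the region contrast was compared between genotypes with an interaction term over all lesioned libraries by label. No gene of 26482 passed (smallest adjusted p 1), by edgeR or DESeq2, and 617 had an unadjusted p under 0.05 (2.33%); leaving out wildtype CA3 replicate 1 gave 1 call. A positive difference means a fold further towards DG in wildtype than in Synpo-/-. The smallest p on that side belonged to Gm43915 (difference of the log2 fold changes 2.18), 4930429F24Rik (1.59) and Nlrp5 (4.53). Gm43915 was at 0.29 by label in wildtype and at -1.87 in Synpo-/-, and Nlrp5 was not tested in Synpo-/- alone. Their mean counts in wildtype were low, at 19.8 and 6.71. In the negative direction the smallest p belonged to Atad3a (-0.64), Mpzl1 (-0.60) and Fbxo2 (-0.86). Among the markers, C1ql2 had a fold larger in wildtype by 2.42 on the log2 scale, which did not pass either. Its normalised counts in Synpo-/- were 652 to 964 in DG and 24 to 79.6 in CA3.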

How the data were processed

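RNA was sequenced from single DG or CA3 areas. The authors deposited raw read counts per gene; per the methods and labels, reads were trimmed with cutadapt 3.5, mapped to mm10 with STAR 2.7.8a and counted without strand over GENCODE exons with featureCounts 2.0.1. Groups came from the labels. Whether cultures shared an animal is not stated, so p-values measure the spread between cultures. Genes were filtered with filterByExpr, scaled by TMM and tested with edgeR 4.0.16's quasi-likelihood test (R 4.3.3) with Benjamini-Hochberg adjustment at 0.05; the study used DESeq2. Normalised counts were scaled to the geometric mean of the TMM-adjusted library totals. Depth covers counting error only. DESeq2 1.42.0, limma 3.58.1 (voom), other filters and scalings, and single libraries left out were alternatives.

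The members, the gene lists and the tests were chosen with earlier results of these data known. Named genes were Prox1, Dsp, Iyd and Synpo, list members, up to 12 genes per direction with the largest fold without replicate 5 among those called by label with a mean count over 300, and up to 3 per direction for each interaction. The 21 genes given per library were picked among these after their values were seen. The fits were tested on simulated counts. Replicate pairs all differed by more than counting noise. Positions are on mm10.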

Additional observations from a re-analysis of the deposited data

Results flagged for a closer look

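Libraries that stood apart from their group were sought for the 21 genes given per library and for the position between regions, by the gap from the highest or lowest library to its neighbour as a share of the group's range. Shares above Dixon's limit for the number of libraries are given, and chance exceeds that limit in about 1 in 20 groups.

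In DG by label, replicate 5 was the library apart for 12 genes. It had been singled out by its Prox1 level, and the genes were picked after their values were seen, so these shares describe that library and test nothing. It was the lowest for Prox1 (0.772), Dsp (0.633), C1ql2 (0.668), Bcl11b (0.663) and Grm2 (0.577). It was the highest for Iyd (0.916), Crym (0.847), Kcnq5 (0.847), Neto1 (0.896), Sv2b (0.922), Sema3e (0.877) and Ptgs2 (0.873). Its position between CA3 and DG was the lowest of the 7 as well (0.866).

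DG replicate 3 was apart for Ttr, as the highest (0.625), and DG replicate 1 came next to it. Besides Ttr, 7 further choroid plexus genes, chosen after the Ttr values were seen, were highest in the same 2 libraries, with Enpp2 at 249 and 736 CPM against 55.1 to 95.9 in the others.

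In lesioned Synpo-/- cultures, DG replicate 2 was apart for Ttr (0.985) and DG replicate 1 for C1ql2 (0.861). Among the CA3 libraries of that genotype, replicate 1 was the highest for Calb2 (0.839) and Slc17a6 (0.759) and replicate 4 for Bcl11b (0.654).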

How the results depend on the processing

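The test by label is the result that moved most. Against 492 genes, DESeq2 called 1512 (927 higher and 585 lower in DG), no filter on low counts 1190, a mean count over 300 left 284, voom with quality weights 5461 (2407 and 3054), all 8 regional groups in one fit 2036, a term for sex 1321, and leaving out the 2 DG libraries rich in Ttr 0 (3171 at an unadjusted p under 0.05). Leaving out 1 library gave 0 to 4746. Another normalisation (431) and removal of the length trend (729) stayed within 1.5 times. Of 78 list members and named genes called by label, 73 to 78 kept their call under these settings, except that 62 did with the filter at 300 and 0 without the 2 Ttr-rich libraries; fits without 1 library other than replicate 5 kept 0 to 2.

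The fit without replicate 5 gave 3068 with the filter at 300 and 2933 (without CA3 replicate 3) to 5452 when 1 library was left out. In lesioned Synpo-/- the count of 3098 became 1889 with that filter, 4799 with voom and 2118 to 4869 with 1 library left out. The interaction with genotype gave 0 to 1 calls. The interaction with lesion gave 10 calls with DESeq2, 1 without the filter, 13 with voom, 3 without replicate 5 and 0 to 14 with 1 library left out (14 without CA3 replicate 3). The position of replicate 5 was -0.139 on the CA3 list. The cause of these shifts was not tested.

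Whether same-numbered DG and CA3 libraries came from the same culture was not settled. Their deviations from group means correlated at 0.27, 0.104 and -0.113 in wildtype and at 0.253, 0.133, -0.274 and 0.33 in Synpo-/-. Differently numbered pairs were not computed, so these values have no reference. The sex marker differed within number 3 of each genotype, so those were not 1 culture, and agreed for the other numbers. With the replicate number as a block the fit by label called 5000 genes (2072 and 2928) and Synpo-/- 4292. In wildtype the block rests on 3 pairs. DG replicate 5 and the other DG libraries without a CA3 library of their number did not enter that comparison of regions. Xist reversed under the block, to -1.51 (adjusted p = 0.0348 by edgeR). Depth limits genes of few reads: the SE of Drd2 and Cdh24 was 0.61 and 0.40 on the log2 scale. A difference has to exceed its SE several times to be called, so differences larger than these could also be missed.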
